A study of Mus musculus with 2 samples.

Results

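The stefin A genes of the mouse were followed in immune cells of tumors. They were chosen as 9 listed symbols, of which 7 genes were found among the 32285 genes of the deposited counts: Stfa2l1, Cstdc4, Stfa1, Cstdc6, Cstdc5, Stfa2 and Stfa3. The other 2 symbols are older names, since the gene identifier of Cstdc4 is annotated as Gm5483 and that of Cstdc5 as BC100530 in GENCODE M21. The genes were chosen by their measured level in neutrophils, after an earlier analysis of these counts had shown Stfa2 among the leading genes of that class, so the high level in neutrophils is a description and not a result. 143B, a cell line of human osteosarcoma, was grown under the skin of female nude mice of 4 weeks, which have almost no T cells but keep their myeloid cells. Mice received control IgG, a human IgG1 isotype antibody, or anti-CD3L1, an antibody against CD3L1 (also called ITPRIPL1), at 10 mg/kg in 4 doses 3 days apart. Both groups carried the same tumor line and no engineered allele. Each group gave 1 droplet library of cells sorted with CD45 beads from a set of 3 tumors, and the tumor of origin of a cell is not recorded. No replicate check of a difference between the groups exists, no p-value was computed, and every interval below is a 95% interval that covers counting error only.

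Stefins are small cytosolic proteins of the cystatin superfamily that bind and block papain-like cysteine proteases such as the cathepsins B, H, L and S. Humans have a single stefin A gene, CSTA, whereas the mouse carries a cluster of close copies on chromosome 16, and several of these copies are known as abundant transcripts of mouse neutrophils. Stefin B (Cstb) is the sister gene outside the cluster, and cystatin C (Cst3) is the secreted relative.

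By gene identifier all 7 genes were placed on chromosome 16 of GRCm38 (GENCODE M21), over 298.6 kilobases from the start of Stfa2l1 at 36156811 to the end of Stfa3 at 36455392. Stfa2l1, Cstdc4 and Stfa1 lie on the plus strand, and Cstdc6, Cstdc5, Stfa2 and Stfa3 on the minus strand. The stretches of 150 bases before the start site are shown because the genes were detected together in the same cells and RefSeq (GRCm38.p6) gives their starts. For 6 of the 7 genes an entry was matched by symbol: Stfa2l1 at chr16:36156661-36156810 (plus), Cstdc4 at chr16:36184062-36184211 (plus), Stfa1 at chr16:36276998-36277147 (plus), Cstdc5 at chr16:36367571-36367720 (minus), Stfa2 at chr16:36408364-36408513 (minus), Stfa3 at chr16:36455393-36455542 (minus). They are written 5′ to 3′ on the strand of the gene, with the run TTTAAA in capitals:
Stfa2l1: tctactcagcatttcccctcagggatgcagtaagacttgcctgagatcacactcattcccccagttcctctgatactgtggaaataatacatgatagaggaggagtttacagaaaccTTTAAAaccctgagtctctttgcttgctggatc
Cstdc4: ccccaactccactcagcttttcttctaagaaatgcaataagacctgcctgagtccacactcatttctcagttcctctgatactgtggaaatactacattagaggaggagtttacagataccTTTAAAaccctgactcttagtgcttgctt
Stfa1: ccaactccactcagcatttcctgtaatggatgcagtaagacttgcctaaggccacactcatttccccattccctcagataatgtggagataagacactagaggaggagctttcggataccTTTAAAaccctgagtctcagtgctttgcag
Cstdc5: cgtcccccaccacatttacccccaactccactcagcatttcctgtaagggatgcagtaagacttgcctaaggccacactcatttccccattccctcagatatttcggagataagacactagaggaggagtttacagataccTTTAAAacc
Stfa2: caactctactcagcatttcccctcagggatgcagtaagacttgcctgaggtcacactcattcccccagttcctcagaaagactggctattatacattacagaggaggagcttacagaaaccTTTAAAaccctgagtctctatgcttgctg
Stfa3: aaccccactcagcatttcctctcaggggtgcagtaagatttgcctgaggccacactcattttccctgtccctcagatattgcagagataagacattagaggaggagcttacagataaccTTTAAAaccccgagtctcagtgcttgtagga
All 6 stretches held TTTAAA once, on either strand, against 6.75% of 32851 promoter stretches of the same length. The capitals ended 23 to 27 bases before the RefSeq start site in 5 genes and 3 bases before it in Cstdc5, whose RefSeq start lies closer to that run. GENCODE M21 gives other starts for some genes. It puts the 5′ end of Stfa1 at 36276951 and that of Cstdc5 at 36367748, so their stretches lie inside the M21 genes. The M21 5′ end of Stfa2, at 36408457, falls within its stretch. GAGGAA, a core that ETS factors such as PU.1 can bind, was present in 4 of 6 stretches (Stfa2l1, Cstdc4, Stfa2 and Stfa3) and in 14.5% of all stretches. AGATAA, a core for GATA factors, was present in 3 of 6 (Stfa1, Cstdc5 and Stfa3) and in 5.65% of all stretches. CCAAT, TTGCGCAA and TGACTCA were in 0 of 6, against 24.5%, 0.113% and 2.84% of all stretches. Identity between pairs of stretches ran from 80.3% for Cstdc4 and Stfa2 to 94.6% for Stfa1 and Cstdc5. The 6 stretches are thus close copies and not independent, so nothing is read from the motif counts beside the shares of all stretches.

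The transcripts are close copies too, and this limits what single genes can show. Stfa1 was 97.1% identical to Cstdc5 over 617 aligned bases, Stfa2l1 was 95.7% identical to Stfa2 over 373 bases, and Cstdc6 was 95.3% identical to Cstdc5 over 387 bases. Of all 90-base windows of a gene's transcripts, the share found also in another gene was 16.4% for Cstdc6, 12.03% for Cstdc5, 6.48% for Stfa1, 4.09% for Cstdc4, 2.42% for Stfa2l1, 2.09% for Stfa2 and 0% for Stfa3. Reads that match several genes equally are not counted by Cell Ranger, so levels of Cstdc6, Cstdc5 and Stfa1 are the least certain. Gm15845, annotated antisense to Cstdc5, had 32 UMIs in control IgG neutrophils and 1 in anti-CD3L1 neutrophils.

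Cells were barcodes of at least 500 UMIs (unique molecular identifiers, 1 per captured RNA molecule) with more than 200 and fewer than 6000 genes and under 5% mitochondrial UMIs. By these limits 8557 cells were kept under control IgG and 11269 under anti-CD3L1, and 26 cell barcodes occurred in both libraries. Neutrophils were gated on the mean level of 12 markers, among them S100a8, S100a9, Csf3r and Cxcr2, and not on any stefin. They made up 69.1% (68.1 to 70.1%) of control IgG cells, 5912 in number, and 5.46% (5.05 to 5.89%) of anti-CD3L1 cells, 615 in number. Their median depth was 4525 and 2245 UMIs. All 12 markers were detected in the neutrophils of both libraries, while their summed level was 174993 CPM (UMIs per 1000000 UMIs of the class) under control IgG and 78899 under anti-CD3L1. Most of that sum was S100a9 (94998 and 43107 CPM) and S100a8 (65700 and 25699 CPM). The 10 macrophage markers summed to 333 and 1428 CPM in the same neutrophils, all 10 being detected in each library, and the 7 monocyte markers to 827 and 1296 CPM. The part of such foreign RNA in the differences below was not tested directly. Of 6 markers of keratinocytes, another known source of stefin A, the defining keratins Krt5, Krt14 and Krt1 were at 0 UMIs in all cells of both libraries. Over all cells of control IgG and anti-CD3L1, Krt10 had 55 and 288 UMIs, Epcam 56 and 307 and Dsp 21 and 45.

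In neutrophils the stefin A genes were abundant and unequal. Under control IgG the 7 genes together took 268106 UMIs, or 7800 CPM (7771 to 7830). Stfa2l1 stood at 2239 CPM, Cstdc4 at 2058, Cstdc5 at 1840 and Stfa2 at 1171. Stfa3 followed at 344 CPM (338 to 350), Cstdc6 at 139 (135 to 143) and Stfa1 at 8.99 (8.02 to 10.1). No pair of neighbours in this order of UMIs had overlapping counting intervals. Stfa2l1, Cstdc4, Cstdc5 and Stfa2 therefore held 28.7%, 26.4%, 23.6% and 15.02% of the stefin A UMIs.

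Under anti-CD3L1 the 7 genes took 3991 UMIs in neutrophils, or 1942 CPM (1882 to 2003). Stfa2l1 was again first at 622 CPM (588 to 657). Cstdc5 at 502 CPM (471 to 533) now came before Cstdc4 at 434 (406 to 463), with intervals that do not overlap. Stfa2 stood at 252 CPM (230 to 274), Stfa3 at 84.2 (72.1 to 97.7), Cstdc6 at 42.3 (33.9 to 52.2) and Stfa1 at 6.33 (3.37 to 10.8). The shares of the stefin A UMIs were 32.0% for Stfa2l1, 25.8% for Cstdc5, 22.4% for Cstdc4 and 12.95% for Stfa2. The order above is that of UMIs and is not corrected for length. Per kilobase of annotated exon the control IgG levels were 5344 CPM for Stfa2l1, 2487 for Stfa2, 2330 for Cstdc5, 1105 for Cstdc4, 835 for Stfa3, 358 for Cstdc6 and 12.7 for Stfa1. Under anti-CD3L1 they were 1484 CPM per kilobase for Stfa2l1, 635 for Cstdc5, 534 for Stfa2, 233 for Cstdc4, 204 for Stfa3, 109 for Cstdc6 and 8.91 for Stfa1. Cstdc4, whose annotated exons are the longest, thus came after Stfa2 on this scale. Droplet reads come mostly from 1 end of a transcript, and the effect of length on these counts was not tested.

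The other cell classes held little stefin A, as the plot of levels by class shows. Under control IgG the 7 genes summed to 116 CPM in 504 macrophages, 101 CPM in 1283 monocytes and 200 CPM in 155 NK cells. Under anti-CD3L1 they summed to 5.998 CPM in 3801 macrophages, 10.8 CPM in 3099 monocytes and 2.27 CPM in 860 NK cells. Neutrophils exceeded macrophages by a log2 ratio of 6.07 (5.97 to 6.17) under control IgG and 8.34 (8.15 to 8.54) under anti-CD3L1. All 7 genes were at least 2-fold higher in neutrophils in both libraries, beside 12.9% and 12.8% of all genes tested. As the genes were chosen for this pattern, nothing is read from that count. Of all stefin A UMIs in cells, 98.6% lay in neutrophils under control IgG and 86.2% under anti-CD3L1.

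**Figure D1:**
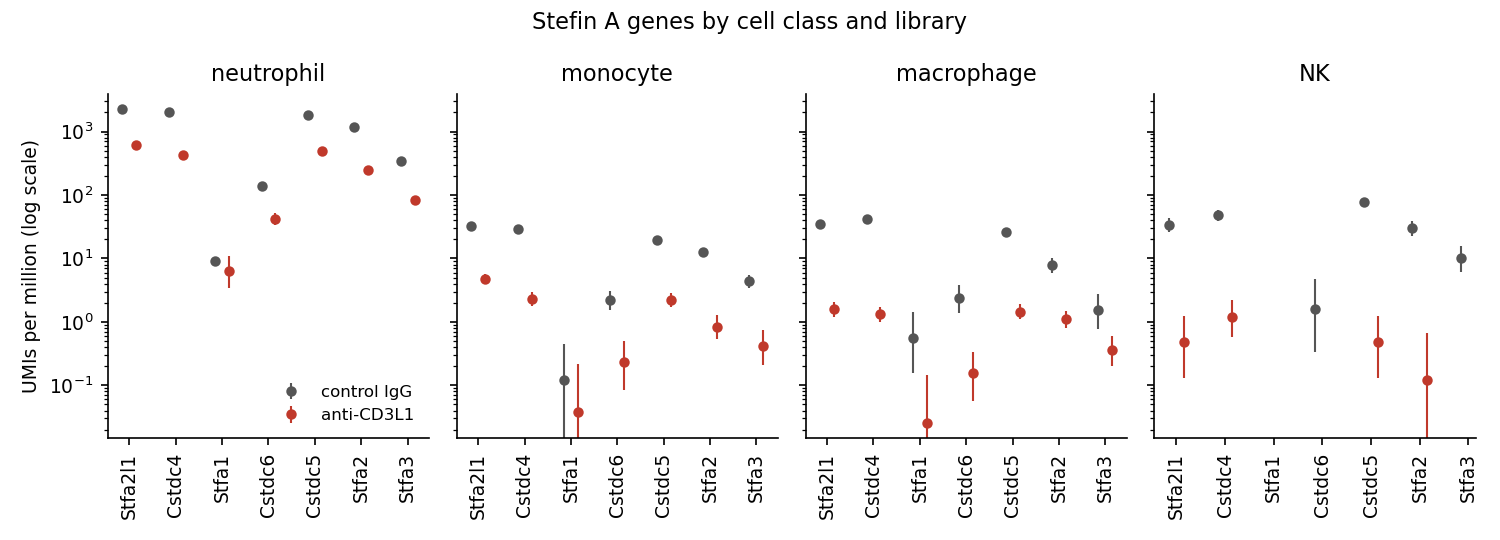
Levels of the 7 stefin A genes in neutrophils, monocytes, macrophages and NK cells, in CPM on a log scale, for control IgG (grey) and anti-CD3L1 (red); bars are exact Poisson 95% intervals and genes at 0 UMIs are not drawn. In neutrophils 6 of 7 genes are at least 2-fold lower under anti-CD3L1, beside 3.5% of the 11792 genes tested, and Stfa1 has overlapping intervals. The other classes lie well below the neutrophils in both libraries.

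Part of what the other classes held lay in few cells. Cells that also reached the gate of a second class were counted, except for the pair of macrophage and monocyte. They held 72.4% of the stefin A UMIs of control IgG macrophages (22 of 504 cells). In control IgG NK cells they held 81.6% (6 of 155 cells). A single NK barcode held 198 of 375 UMIs. Without such cells the summed level under control IgG was 34.3 CPM (29.96 to 39.04) in macrophages, 34.7 CPM (31.8 to 37.9) in monocytes and 38.5 CPM (29.9 to 48.7) in NK cells, with overlapping intervals. Under anti-CD3L1 it was 1.86 CPM (1.45 to 2.34), 4.64 CPM (3.84 to 5.57) and 0.784 CPM (0.288 to 1.71). There the monocyte interval lay above the others without overlap, and 1 monocyte held 30 of the 117 UMIs. Dendritic cells differed from these classes under control IgG, with 120 CPM in 27 cells and 131 CPM (97.4 to 172) without the 2 second-class cells. A single barcode of them held 36 of the 52 UMIs. Under anti-CD3L1 378 dendritic cells had 5.57 CPM, and 5.99 (3.95 to 8.71) without such cells. Barcodes of 10 to 100 UMIs, which hold free RNA rather than a cell, had 3799 CPM of stefin A under control IgG and 38.1 CPM under anti-CD3L1. Free stefin A RNA thus differed between the libraries in the same direction as the levels outside neutrophils.

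The libraries differed in the neutrophils themselves. The summed level under anti-CD3L1 was 4.02-fold lower, a log2 ratio of -2.01 (-2.05 to -1.96). Cstdc4 had 2058 CPM under control IgG and 434 under anti-CD3L1, a log2 ratio of -2.25 (-2.34 to -2.15). The ratio was -2.22 (-2.35 to -2.09) for Stfa2, -2.03 (-2.26 to -1.81) for Stfa3 and -1.88 (-1.97 to -1.79) for Cstdc5. It was -1.85 (-1.93 to -1.77) for Stfa2l1 and -1.71 (-2.03 to -1.41) for Cstdc6. Stfa1 had only 309 and 13 UMIs, and its ratio of -0.51 (-1.43 to 0.29) was not resolved at this depth. In all, 6 of the 7 genes were at least 2-fold lower under anti-CD3L1, beside 3.5% of the 11792 genes tested (20 or more UMIs over both libraries). The median over the 7 genes was -1.88, against 0.71 over all genes tested. Of the 1211 genes with at least 100 CPM under control IgG, 6.69% were 2-fold lower, and their median was 0.17. The stefin A genes were chosen by their level in neutrophils, of which 5912 were control IgG and 615 anti-CD3L1 cells. That choice can favor genes that are higher under control IgG, so the count and the median are descriptions.

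**Figure D2:**
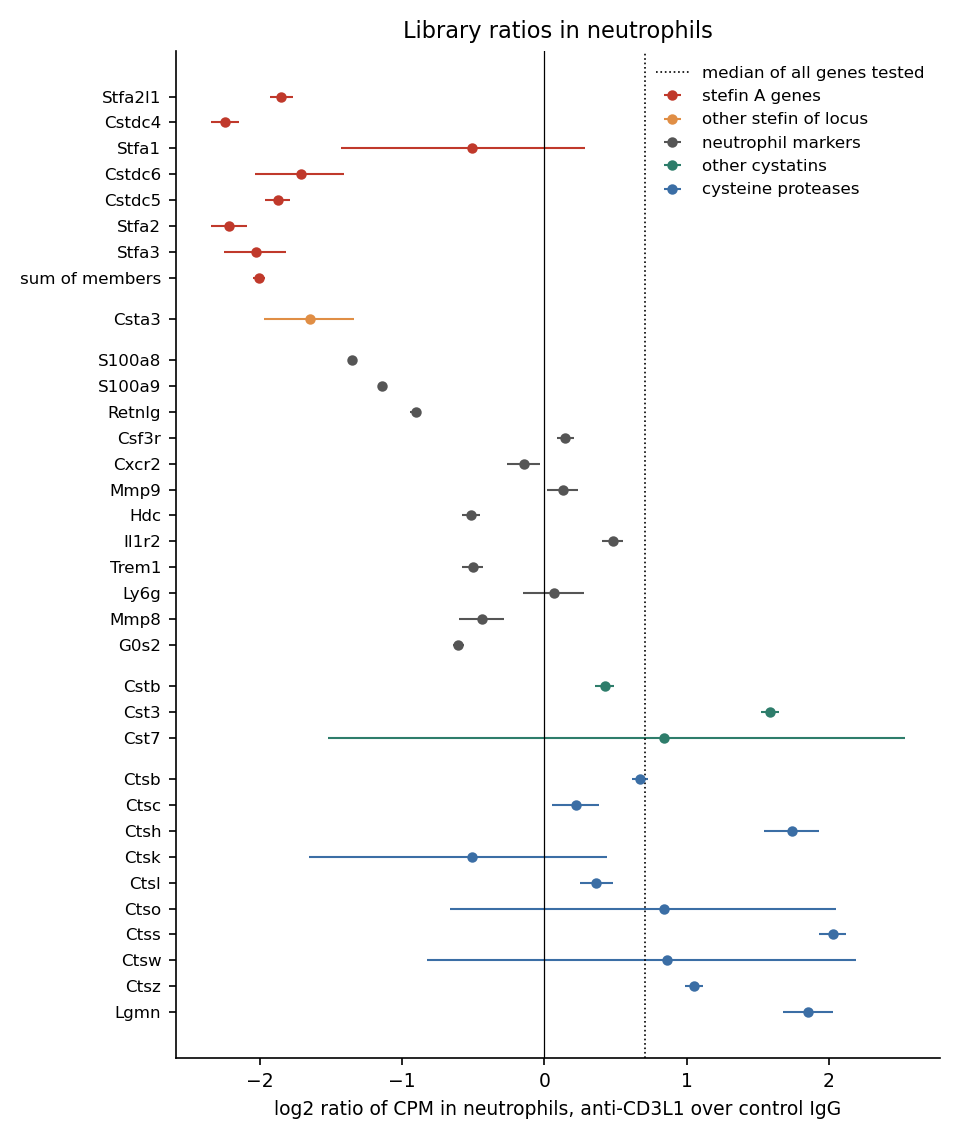
Log2 ratio of CPM in neutrophils, anti-CD3L1 over control IgG, for the stefin A genes and their sum, the stefin gene Csta3 of the same locus, the 12 neutrophil markers, other cystatins and cysteine proteases; bars are exact 95% counting intervals, the solid line is 0 and the dotted line is the median of all genes tested (0.71). The stefin A genes other than Stfa1 lie between -2.25 and -1.71, below all 12 markers, and the values of the other cystatins lie above 0.

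The size of this ratio depends on what the stefin A UMIs are set against. Of the 12 neutrophil markers 2 were 2-fold lower as well, S100a8 by a log2 ratio of -1.35 and S100a9 by -1.14. Retnlg was at -0.91, while Csf3r, the G-CSF receptor, was at 0.15 and Cxcr2 at -0.15. S100a8 and S100a9 held most of the marker UMIs, with 2258275 and 3265327 of 6014938 under control IgG. Under anti-CD3L1 they held 52820 and 88598 of 162162. A scale per marker UMI thus rests mainly on these 2 genes, and a ratio per UMI of the remaining markers was not computed. Counted per UMI of the 12 neutrophil markers, the summed stefin A ratio was -0.86 and 2 of 7 genes, Cstdc4 and Stfa2, stayed past 2-fold, beside 0.645% of all genes tested being 2-fold lower on that scale, while Stfa1 turned to 0.64. On that scale the median over the 11573 genes with UMIs in both libraries was 1.88. A change of denominator shifts the log2 ratio of every gene alike. The summed ratio minus that median, -2.74, is therefore the same on either scale by construction and is no separate result. Per 1000 S100a8 UMIs neutrophils held 119 stefin A UMIs (118 to 119) under control IgG and 75.6 (73.1 to 78.0) under anti-CD3L1. The free RNA of each library had 136 and 73.9.

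Over all cells of a library, the summed level was 4042 CPM under control IgG and 47.3 CPM under anti-CD3L1, a log2 ratio of -6.42 (-6.46 to -6.38). Of all UMIs of cells, 51.1% belonged to neutrophils under control IgG and 2.10% under anti-CD3L1, a log2 ratio of -4.60. Within neutrophils it was -2.01.

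The share of neutrophils with stefin A RNA was compared at 1 depth, since it grows with the number of UMIs. After each cell was thinned to 1000 UMIs, 77.4% (76.3 to 78.4%) of 5771 control IgG neutrophils and 50.6% (46.4 to 54.8%) of 577 anti-CD3L1 neutrophils had at least 1 stefin A UMI. The difference was -26.8 percentage points (-31.1 to -22.5). At this depth 141 control IgG and 38 anti-CD3L1 neutrophils were too shallow and were left out. Unthinned, the shares were 88.4% and 63.7%. The background share, in NK cells thinned alike, was 6.45% (3.14 to 11.5%) under control IgG and 0.117% (0.00296 to 0.649%) under anti-CD3L1, at median depths before thinning of 10937 and 8696 UMIs. The macrophage share of 4.79% (3.09 to 7.04%) under control IgG was not above that background. By gene, Cstdc4 was detected in 50.7% and 20.5% of thinned neutrophils, Stfa2l1 in 58.2% and 33.3%, and Cstdc5 in 42.0% and 23.9%. Stfa2 was detected in 28.0% and 12.7%, Stfa3 in 12.2% and 3.64%, Cstdc6 in 10.9% and 3.99%, and Stfa1 in 0.936% and 0.347%.

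Neutrophils of 1 library varied widely in stefin A. At 1000 UMIs per cell the median neutrophil had 4 stefin A UMIs under control IgG, with quartiles of 1 and 10 and a maximum of 118. The median under anti-CD3L1 was 1, with quartiles of 0 and 3 and a maximum of 45. The tenth of cells with the highest sums held 44.3% of the stefin A UMIs under control IgG and 56.9% under anti-CD3L1. Cells with 10 or more stefin A UMIs made up 26.6% of control IgG and 6.93% of anti-CD3L1 neutrophils. Under anti-CD3L1 more cells were at 0 and fewer were at 10 or more.

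**Figure D3:**
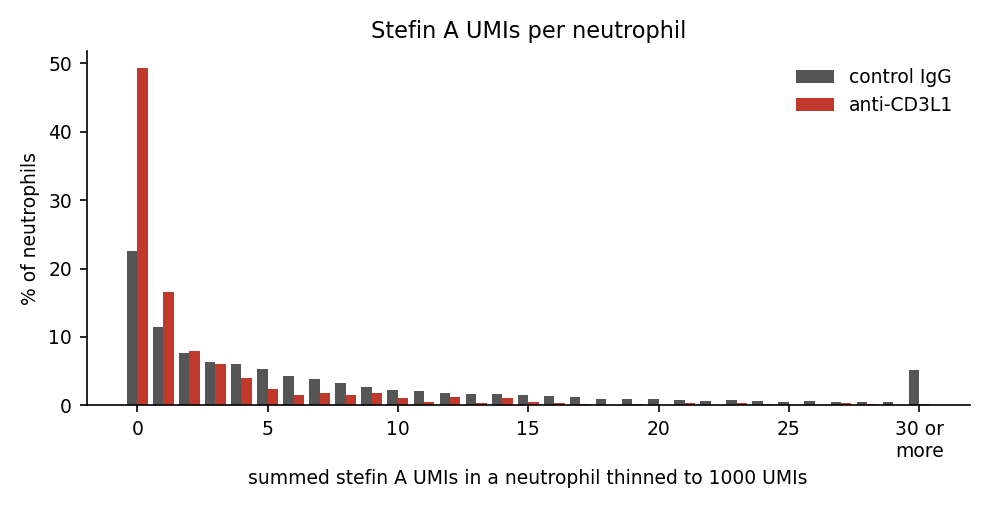
Share of neutrophils (in %) by the number of summed stefin A UMIs, after thinning each cell to 1000 UMIs, for control IgG (grey, 5771 cells) and anti-CD3L1 (red, 577 cells); the last bar joins 30 or more. Cells at 0 make up 22.6% under control IgG and 49.4% under anti-CD3L1.

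Stefin A genes were detected together in single neutrophils. Among thinned control IgG neutrophils, Stfa2 was present in 51.7% of cells with Cstdc5 and in 10.9% of cells without it. Stfa3 was present in 32.7% of cells with Stfa2 and in 4.17% of cells without it. The Pearson correlation of ln(1 + UMIs) was 0.62 for Cstdc5 and Stfa2, 0.55 for Stfa2 and Stfa3 and 0.53 for Stfa2l1 and Cstdc4. It was 0.41 for Stfa2l1 and Stfa2, which are the 2 most alike of the abundant transcripts, and 0.26 for Stfa2l1 and Stfa3. Among 577 anti-CD3L1 neutrophils the highest value was again that of Cstdc5 and Stfa2, at 0.58, followed by Stfa2 and Stfa3 at 0.50. These cells share a library and its free RNA, and a pair of genes with few UMIs cannot reach a high value, so the correlations describe these cells only. No thinned neutrophil held all 7 genes, and 163 control IgG and 2 anti-CD3L1 neutrophils held 6 of them.

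**Figure D4:**
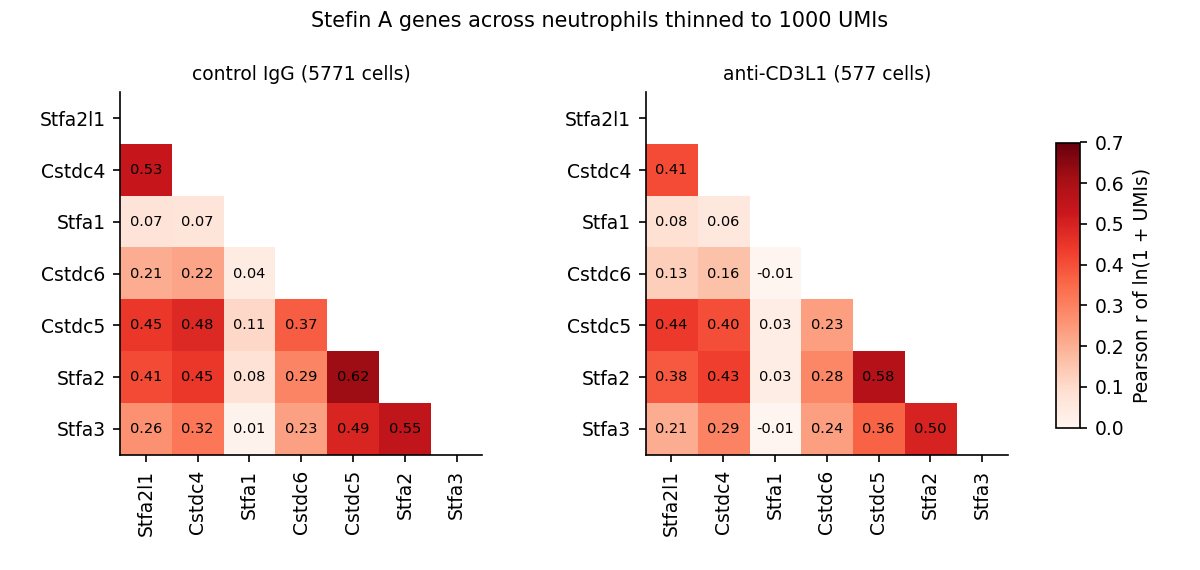
Pearson r of ln(1 + UMIs) between pairs of stefin A genes over neutrophils thinned to 1000 UMIs, for control IgG (left) and anti-CD3L1 (right), with genes in chromosomal order. Under control IgG the highest values are those of Cstdc5 and Stfa2 (0.62), Stfa2 and Stfa3 (0.55) and Stfa2l1 and Cstdc4 (0.53), under anti-CD3L1 those of Cstdc5 and Stfa2 (0.58) and Stfa2 and Stfa3 (0.50), and all pairs with the sparse Stfa1 lie near 0.

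The level was followed across states of the neutrophils, given by short gene lists scored in thinned cells and divided at cut points of the control IgG library. The granule list (Camp, Ngp, Ltf, Lcn2, Mmp8, Cebpe) was drawn up for granule genes and neutrophil immaturity. From its lowest to its highest bin the sum of the stefin A genes went from 6.43 to 8.88 UMIs per 1000 under control IgG. Under anti-CD3L1 the sum went from 2.20 to 4.82. That list was itself unequal between libraries. Lcn2, which encodes a granule protein, had a ratio of -2.57, whereas the granule genes Camp (3.65), Ltf (3.33) and Ngp (2.17) were higher under anti-CD3L1. Under control IgG Lcn2 stood at 9019 CPM, far above Ngp (229), Mmp8 (224), Camp (43.6) and Ltf (42.5). Under anti-CD3L1 Lcn2 was at 1518 CPM, nearer to Ngp (1030.5), Camp (547) and Ltf (429), with Mmp8 at 165. Cebpe was the lowest in both. The weight of each gene in the bins was not tested, so a bin may not mark the same state in both libraries. In the lowest bin fell 90.3% of anti-CD3L1 neutrophils.

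Along the interferon list (Ifit1, Ifit3, Rsad2, Isg15, Oasl1, Usp18) the direction was the opposite. The sum went from 8.67 UMIs per 1000 in the lowest bin to 6.69 in the highest under control IgG, and from 2.79 to 2.06 under anti-CD3L1. The highest bin held 22.9% of control IgG and 47.8% of anti-CD3L1 neutrophils. Within each interferon bin the library ratio stayed between -1.70 and -1.46, beside -1.71 over all thinned neutrophils. Over the list of late tumor neutrophils (Ccl3, Ccl4, Cxcl2, Hilpda, Cd274, Ninj1, Vegfa) the control IgG sum was 8.18, 7.65 and 7.74, and the anti-CD3L1 sum 2.82, 1.92 and 1.74. For the primary granule list (Mpo, Elane, Prtn3, Ctsg) 99.8% and 99.7% of cells fell in the lowest bin, and the 12 control IgG and 2 anti-CD3L1 cells of the middle bin and 1 control IgG cell of the highest bin were too few to compare.

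**Figure D5:**
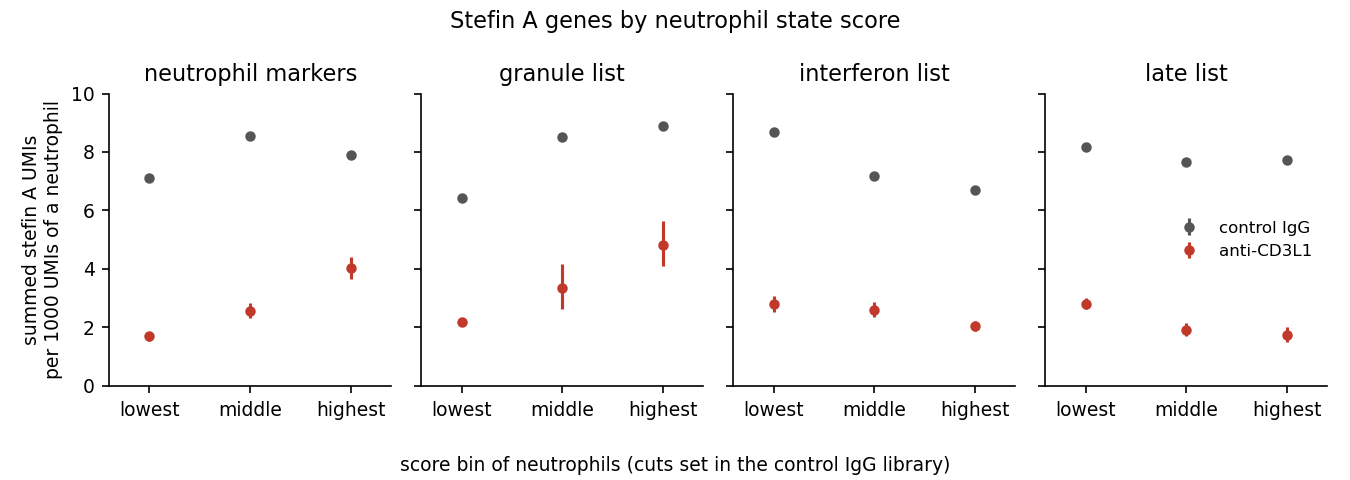
Summed stefin A UMIs per 1000 UMIs of a neutrophil in the lowest, middle and highest bin of 4 gene lists, for control IgG (grey) and anti-CD3L1 (red); bars are exact Poisson 95% intervals, and cut points come from the control IgG library. In each bin shown the anti-CD3L1 value lies below the control IgG value.

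The gap between the libraries was not the same in all neutrophils. Bins were made in thinned cells, where the log2 ratio over all neutrophils was -1.71 and not -2.01. In the highest bin of the 12 neutrophil markers the log2 ratio was -0.98 (-1.11 to -0.84), in the middle bin -1.74 (-1.89 to -1.60) and in the lowest bin -2.08 (-2.20 to -1.95). The highest bin held 20.3% of anti-CD3L1 neutrophils and the lowest 53.2%. For the granule list the ratio in the highest bin was -0.88 (-1.12 to -0.66), over 33 anti-CD3L1 cells. That bin may not mark the same state in both libraries. Lcn2 far exceeded the other list genes under control IgG, and the weight of each gene in the bins was not tested.

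Single genes did not follow the lists alike. From the lowest to the highest granule bin under control IgG, Stfa3 had a log2 ratio of 0.98 (0.81 to 1.15) and Stfa2 of 0.69 (0.60 to 0.78), but Stfa2l1 only 0.21 (0.15 to 0.27). Under anti-CD3L1 the same ratio was 2.98 (1.94 to 3.95) for Stfa3, 2.13 (1.55 to 2.67) for Stfa2 and 0.03 (-0.58 to 0.58) for Stfa2l1. The highest granule bin held only 33 anti-CD3L1 cells, and the genes that set its score may differ between the libraries. Before thinning, a single anti-CD3L1 neutrophil held 60 of the 173 Stfa3 UMIs, and a single one held 56 of the 517 Stfa2 UMIs. The intervals do not cover such clustering in few cells. From the lowest to the highest interferon bin under anti-CD3L1 the log2 ratio was -2.79 (-4.24 to -1.55) for Stfa3 and 0.21 (-0.13 to 0.55) for Stfa2l1. Under control IgG the order was not the same, with -0.34 (-0.40 to -0.27) for Stfa2l1, -0.21 (-0.30 to -0.12) for Stfa2 and -0.18 (-0.35 to -0.0068) for Stfa3. Over the granule bins of both libraries Stfa2 and Stfa2l1 thus had ratios with intervals that do not overlap, although their transcripts are close copies.

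Of the other stefin genes in the locus, Csta3 was measured well enough to compare. It had 131 CPM (127 to 135) in control IgG and 41.8 CPM (33.5 to 51.7) in anti-CD3L1 neutrophils, a log2 ratio of -1.65 (-1.97 to -1.34). Csta2 had 28 and 0 UMIs and Csta1 6 and 0, too few for a fold. Of the nearest other genes on either side, Fam162a, a mitochondrial protein gene, had 387 and 92.0 CPM in neutrophils, a ratio of -2.07 (-2.29 to -1.87). Cd86, a costimulatory ligand of myeloid cells, had 53.6 and 196 CPM, a ratio of 1.87 (1.71 to 2.02). Ccdc58 had 248 and 8 UMIs and a ratio of -0.89 (-2.12 to 0.11), Gm49662 103 and 16 UMIs and 1.38 (0.52 to 2.14), Wdr5b 16 and 1 UMIs and Casr 8 and 0.

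The stefin A genes were set beside the other inhibitors of the family and beside cysteine proteases, namely papain-like ones and legumain. Stefin B (Cstb) had 683 CPM (674 to 692) in control IgG and 917 CPM (876 to 959) in anti-CD3L1 neutrophils, a ratio of 0.43 (0.36 to 0.49). Cystatin C (Cst3) had 394 and 1185 CPM, a ratio of 1.59 (1.52 to 1.65). Of 14 other cystatin-family genes only these 2 and Cst7, with 28 and 3 UMIs, had 20 UMIs. Of 10 cysteine proteases with 20 UMIs, 4 were at least 2-fold higher under anti-CD3L1, beside 37.1% of all genes tested, 6 were within 2-fold and 0 were 2-fold lower. The 4 were cathepsin S (Ctss, 135 and 549 CPM, ratio 2.03), legumain (Lgmn, 45.2 and 163 CPM, 1.86), cathepsin H (Ctsh, 38.3 and 128 CPM, 1.74) and cathepsin Z (Ctsz, 536 and 1111 CPM, 1.05). Cathepsin B (Ctsb) had 864 and 1381 CPM, a ratio of 0.68. These genes are more abundant in macrophages than in neutrophils of the same library, with 2082 and 2844 CPM for Ctss and 1719 and 2841 CPM for Cst3 in macrophages. Apoe, which marks macrophages, had 199 and 1100 CPM in the same neutrophils, and the macrophage list differed in the same direction. The part of macrophage RNA in the protease values and in Cst3 was not tested.

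Across 15 units of cell class and library with at least 20 cells, the genes most like the summed stefin A level were S100a9 (Pearson r of log2(CPM + 1) 0.97), S100a8 (0.96), Retnlg (0.95), Asprv1 (0.94) and Il1f9 (0.94), out of 6371 genes ranked. S100a8, S100a9 and Retnlg also served as gate markers. The units share libraries, cells of a sort and free RNA, so the values describe likeness only. Asprv1, an aspartic protease gene, had 1560 and 1003 CPM in neutrophils, a ratio of -0.64. Il1f9, which encodes the cytokine IL-36 gamma, had 1216 and 641 CPM, a ratio of -0.92. Both were lower by less than the summed stefin A level, at -2.01, though the sparse Stfa1 was at -0.51 (-1.43 to 0.29). Each stefin A gene followed the other 6 across the same units with r of 0.79 for Stfa1 to 0.96 for Stfa2l1.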

How the data were processed

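RNA was measured in 2 droplet libraries of CD45 bead-sorted cells, 1 for control IgG and 1 for anti-CD3L1, with 74850604 and 108246719 UMIs. Raw UMI counts for every barcode were deposited by the authors, made with Cell Ranger 7.1.0, and their processing notes name GRCm39 and Seurat 5.1.0. Locus and promoter coordinates here are GRCm38 (GENCODE M21, RefSeq GRCm38.p6), matched by gene identifier or symbol, and were not mixed with GRCm39. The deposited table of macrophage log2 fold changes, shares and p-values holds the authors' own comparisons and was not used.

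A level (CPM) is the sum of a gene's UMIs in a class over the sum of that class's UMIs, times 1000000. Classes were gated with mean ln(1 + UMIs per 10000) of fixed marker lists (10 classes), with thresholds set after the scores were seen (1.0 for neutrophils). No doublet caller was run, and cells that reached a second class's threshold were left out in an alternative. Macrophages that reached the monocyte threshold, and monocytes that reached the macrophage threshold, did not count as such cells. Intervals are exact Poisson, exact binomial and, for ratios, exact conditional binomial. The interval of a difference in shares joins the exact binomial limits of both shares as the root of summed squares, and is approximate. A gene was called at a 2-fold difference with at least 20 UMIs. Promoter motifs were searched on both strands. The members and lists were chosen with earlier results of these data known. Named genes were the members, other cystatins, cysteine proteases, the 5 most alike genes, 3 neighbours per side and neutrophil state lists, of which 1 list is not reported here. Gm15845 and Apoe were named after their values were seen. Tools were Python 3.11.15, numpy 2.4.6, scipy 1.17.1, pandas 2.3.3, matplotlib 3.10.9 and Biopython 1.88. The scripts were tested on simulated counts.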

Additional observations from a re-analysis of the deposited data

How the results depend on the processing

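The direction of the summed stefin A ratio in neutrophils (-2.01) held under all 10 alternatives tried, from -2.16 to -0.86. It was -1.79 with a stricter gate, -1.74 without cells that carry markers of a second class, -2.16 with CPM over the UMIs left after S100a8, S100a9, the members and mitochondrial genes were removed, -1.96 after subtraction of free RNA, -1.72 as a mean over cells and -1.71 in thinned cells. Chosen after seeing the data, it was -0.86 per UMI of the neutrophil markers and -2.06 with at least 2000 UMIs per barcode. The median over the members (-1.88) was -1.68, -1.59, -2.03, -1.61 and -1.56 under the stricter gate, without second-class cells, under the reduced CPM, as a mean over cells and in thinned cells, and -0.73 per marker UMI. The number past 2-fold (6) was 2 per marker UMI, 7 in thinned cells and 6 under the other 9 alternatives. The gene added in thinned cells was Stfa1 at -1.46, which was detected in only 2 of 577 anti-CD3L1 neutrophils there. It met the minimum of 20 UMIs by its unthinned counts. The numbers past 2-fold in thinned cells, as a mean over cells and with at least 2000 UMIs were chosen after seeing the data. Of the single members only Stfa1 turned its sign, to 0.64 per marker UMI. The neutrophil over macrophage ratio was 6.65 and 8.89 (control IgG, anti-CD3L1) with the stricter gate, 7.89 and 10.4 without second-class cells, 6.32 under the reduced CPM for control IgG and 9.02 after subtraction of free RNA for anti-CD3L1. The amount subtracted was set by the stefin A level of NK cells, all of it taken as free RNA. Under control IgG that level was 200 CPM, above the 116 CPM of macrophages. Subtraction was thus bound to leave no stefin A in control IgG macrophages, and that ratio has no value. The difference in share of neutrophils was -19.7 points at 2000 UMIs. At that depth 342 control IgG and 236 anti-CD3L1 neutrophils were too shallow and were left out, with 5570 and 379 kept. Over genes with UMIs in both libraries the median was 0.57 with the denominator of reduced CPM, against 0.73 on the CPM scale. A change of denominator shifts the log2 ratio of every gene alike by construction. The cause of the other shifts was not tested. No paired analysis was possible because each group has 1 library. Intervals cover counting error only, and the 615 shallow anti-CD3L1 neutrophils limit the rarer members, Stfa1 above all.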
